A study of Homo sapiens with 5 samples.

Results

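The 48 DNA replication genes examined here encode the proteins that license origins, unwind and copy DNA and supply deoxynucleotides. They were taken as a named list in 11 groups by complex and step, and all 48 were found among the 20037 protein-coding genes that RefSeq places on GRCh38. The study profiled HepG2, a human liver cancer line, by CUT&Tag, in which an antibody brings a DNA-cutting and tagging enzyme to the chromatin it recognises. Sites with more tagged DNA than the local background were deposited as peaks. The 5 libraries were Flag-ENL Y78A, Flag-ENL wild type, and H3 lysine 9 β-hydroxybutyrylation (H3K9bhb), crotonylation (H3K9cr) and acetylation (H3K9ac). Per the design text, the line carries a stable Flag-ENL construct, and antibodies to Flag and to H3K9bhb were used. It does not give the promoter of the construct, whether a line is 1 clone, or whether endogenous ENL remained, and the labels do not say which cells gave the H3K9cr and H3K9ac libraries. No treatment is named. Each group had 1 library, so no difference between libraries had a replicate check and no test between them was made.

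ENL, the product of MLLT1, belongs to transcription elongation complexes and binds acylated lysines through its YEATS domain, and Y78A puts alanine in place of a tyrosine in that domain. In replication, the origin recognition complex (ORC) with CDC6 and CDT1 loads the ring of MCM2 to MCM7 onto origins. CDC45 and GINS then turn that ring into the active helicase, and the polymerases follow with the PCNA clamp and its loader, replication factor C. Many of these genes are transcribed as cells approach S phase through E2F and NF-Y sites in short, GC-rich promoters.

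The standard chromosomes held 5422 peaks for Flag-ENL Y78A, 11394 for Flag-ENL wild type, 9176 for H3K9bhb, 3852 for H3K9cr and 31493 for H3K9ac. Read totals are unknown. The number of fragments at each summit was recovered from the deposited fold and −log10 p, and the most frequent recovered background, a rough measure of depth, stood for Y78A at 0.841 of the wild type ENL level. The same ratio to wild type was 0.937 for H3K9bhb, 1.60 for H3K9cr and 1.72 for H3K9ac. Peak names in the list labelled H3K9ac begin with ENL1, and those in the list labelled H3K9bhb begin with H3K9 and name no acyl group. Those in the list labelled H3K9cr begin with CRWT-2. The labels were followed. Results that use H3K9ac as a condition are also given without it. Of 14 liver and HepG2 marker genes, 9 had a gene-end peak in the H3K9ac list, against 56.4% of all protein-coding genes. Among the 9 were HNF4A, FOXA1, FOXA2, APOA1 and APOB, while ALB, AFP, TTR, SERPINA1 and FGB had none. A share this near that of all genes does not check the label. Of 7 markers of other cell types, CD8A alone had one.

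The promoters below show the sequence context of the peaks. ORC6 and PCNA had a peak in all 5 lists and MCM3 in all but H3K9cr, while MCM6 and RRM1 had H3K9ac only. Each sequence is from RefSeq (GRCh38.p14) and runs 5′ to 3′ along the gene from 250 bases before the listed start to the 50th base from it. Capitals mark the E2F letters TTTCGCGC, TTTCCCGC, TTTGGCGC or TTTGCCGC, and CCAAT, on either strand. Some matches overlap, and both E2F blocks of MCM6 hold 1 match on each strand.
ORC6 (chr16:46689409-46689708, plus strand): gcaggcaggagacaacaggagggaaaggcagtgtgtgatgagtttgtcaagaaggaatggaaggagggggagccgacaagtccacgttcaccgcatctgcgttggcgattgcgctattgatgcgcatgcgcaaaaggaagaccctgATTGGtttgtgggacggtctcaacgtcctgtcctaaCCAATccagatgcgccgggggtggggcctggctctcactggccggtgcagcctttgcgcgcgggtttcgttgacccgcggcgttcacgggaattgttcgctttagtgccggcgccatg
PCNA (chr20:5126573-5126872, minus strand): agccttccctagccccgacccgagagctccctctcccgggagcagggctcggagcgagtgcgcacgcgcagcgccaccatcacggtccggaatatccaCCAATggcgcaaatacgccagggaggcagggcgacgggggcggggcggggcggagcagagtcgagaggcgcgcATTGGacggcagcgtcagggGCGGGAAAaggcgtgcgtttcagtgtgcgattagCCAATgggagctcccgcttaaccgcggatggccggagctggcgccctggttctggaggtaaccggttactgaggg
MCM3 (chr6:52284693-52284992, minus strand): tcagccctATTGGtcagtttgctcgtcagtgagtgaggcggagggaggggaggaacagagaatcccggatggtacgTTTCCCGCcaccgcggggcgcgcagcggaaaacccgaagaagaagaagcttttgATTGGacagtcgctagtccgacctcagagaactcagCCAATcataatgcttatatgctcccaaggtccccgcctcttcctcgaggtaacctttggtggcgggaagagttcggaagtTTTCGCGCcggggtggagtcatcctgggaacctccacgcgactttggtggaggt
MCM6 (chr2:135876394-135876693, minus strand): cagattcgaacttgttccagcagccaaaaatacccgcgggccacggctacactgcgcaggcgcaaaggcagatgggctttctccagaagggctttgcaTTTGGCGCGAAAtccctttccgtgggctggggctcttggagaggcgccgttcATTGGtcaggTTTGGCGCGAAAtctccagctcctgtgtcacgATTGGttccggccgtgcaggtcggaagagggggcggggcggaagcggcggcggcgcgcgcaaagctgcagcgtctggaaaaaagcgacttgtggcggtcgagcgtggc
RRM1 (chr11:4094435-4094734, plus strand): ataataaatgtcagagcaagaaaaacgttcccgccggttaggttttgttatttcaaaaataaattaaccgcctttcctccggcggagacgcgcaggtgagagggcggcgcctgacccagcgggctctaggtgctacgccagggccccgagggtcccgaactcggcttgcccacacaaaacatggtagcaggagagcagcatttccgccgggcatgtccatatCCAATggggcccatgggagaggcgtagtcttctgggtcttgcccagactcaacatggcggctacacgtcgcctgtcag
In these windows ORC6 had 0 E2F matches, PCNA 1, MCM3 2, MCM6 4 and RRM1 0, and each had at least 1 CCAAT. The E2F match of MCM3 nearest its start, TTTCGCGC, begins at −4 bp. The MCM6 promoter carried the most E2F letters of the 5 and had no ENL or H3K9bhb peak.

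A gene was counted for a library when a peak overlapped by at least 1 bp the 1 kb on either side of either end of the gene. Flag-ENL Y78A had such a peak at 16 of the 48 replication genes (33.3%), against 14.6% of all protein-coding genes. Flag-ENL wild type had one at 27 (56.3%), against 28.6%. H3K9bhb was at 22 (45.8%), against 23.8% of all protein-coding genes, H3K9cr at 3 (6.25%), against 4.49%, and H3K9ac at 46 (95.8%), against 56.4%. H3K9ac alone was listed at 15 genes, against 24.7%, and 2, ORC1 and RPA3, had no gene-end peak in any list, against 42.8%. Since 46 genes had H3K9ac, the remaining counts were also taken among acetylated genes. There the members stood closer to the background. Y78A was at 16 of 46, against 25.6% of all genes with H3K9ac, wild type ENL at 27 of 46, against 49.7%, H3K9bhb at 22 of 46, against 41.6%, and H3K9cr at 3 of 46, against 7.78%. The members and lists were chosen with earlier results of these data known, so the counts describe these genes and are not tests. In a bulk library a site occupied in fewer cells and a site occupied less in each cell cannot be told apart.

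**Figure D1:**
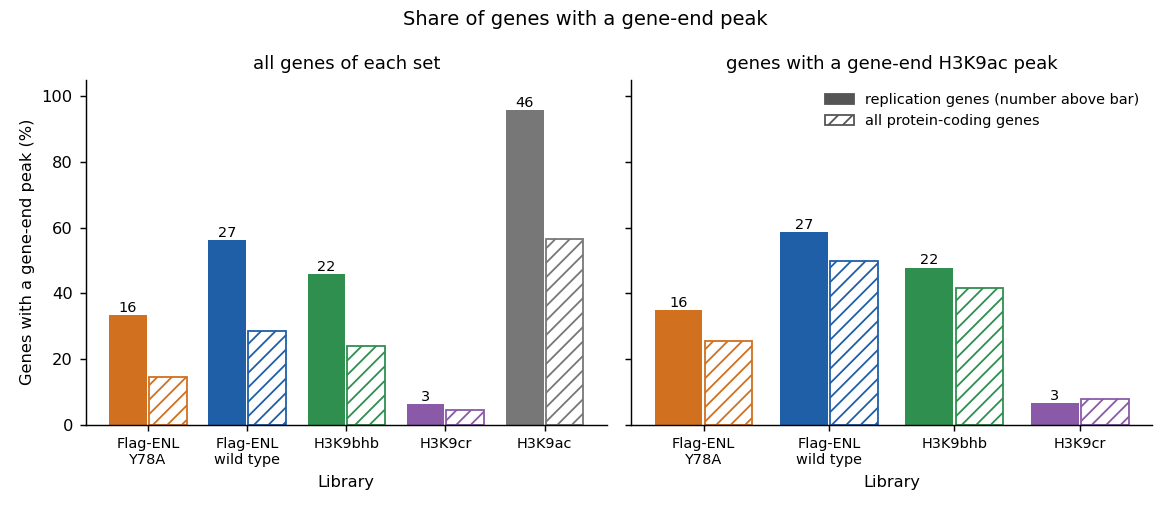
Percentage of genes with a gene-end peak in each library, for the 48 replication genes (filled bars, number of genes above) and all 20037 protein-coding genes (hatched bars), on the left for all genes and on the right for genes with a gene-end H3K9ac peak. The gap between filled and hatched bars is smaller on the right, where 27 of 46 replication genes had wild type ENL, against 49.7% of all acetylated genes.

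The peaks themselves were of ordinary strength. At the strongest gene-end peak of each gene, taken as the one with the highest −log10 p, the median summit held 19 fragments at the 16 replication genes with Y78A, against 21 at the 2934 protein-coding genes with Y78A. For wild type ENL the medians were 23 and 24 fragments, for H3K9bhb 22.5 and 22, for H3K9cr 25 and 21, and for H3K9ac 47 and 48, with the replication genes first in each case. H3K9ac peaks at replication genes were wide, with a median of 1175 bp, against 980 bp at all genes with H3K9ac. Wild type ENL peaks had a median width of 432 bp at replication genes and 458 bp at all genes. Fragment numbers reflect depth, so they are compared here only within a library or as pairs.

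**Figure D2:**
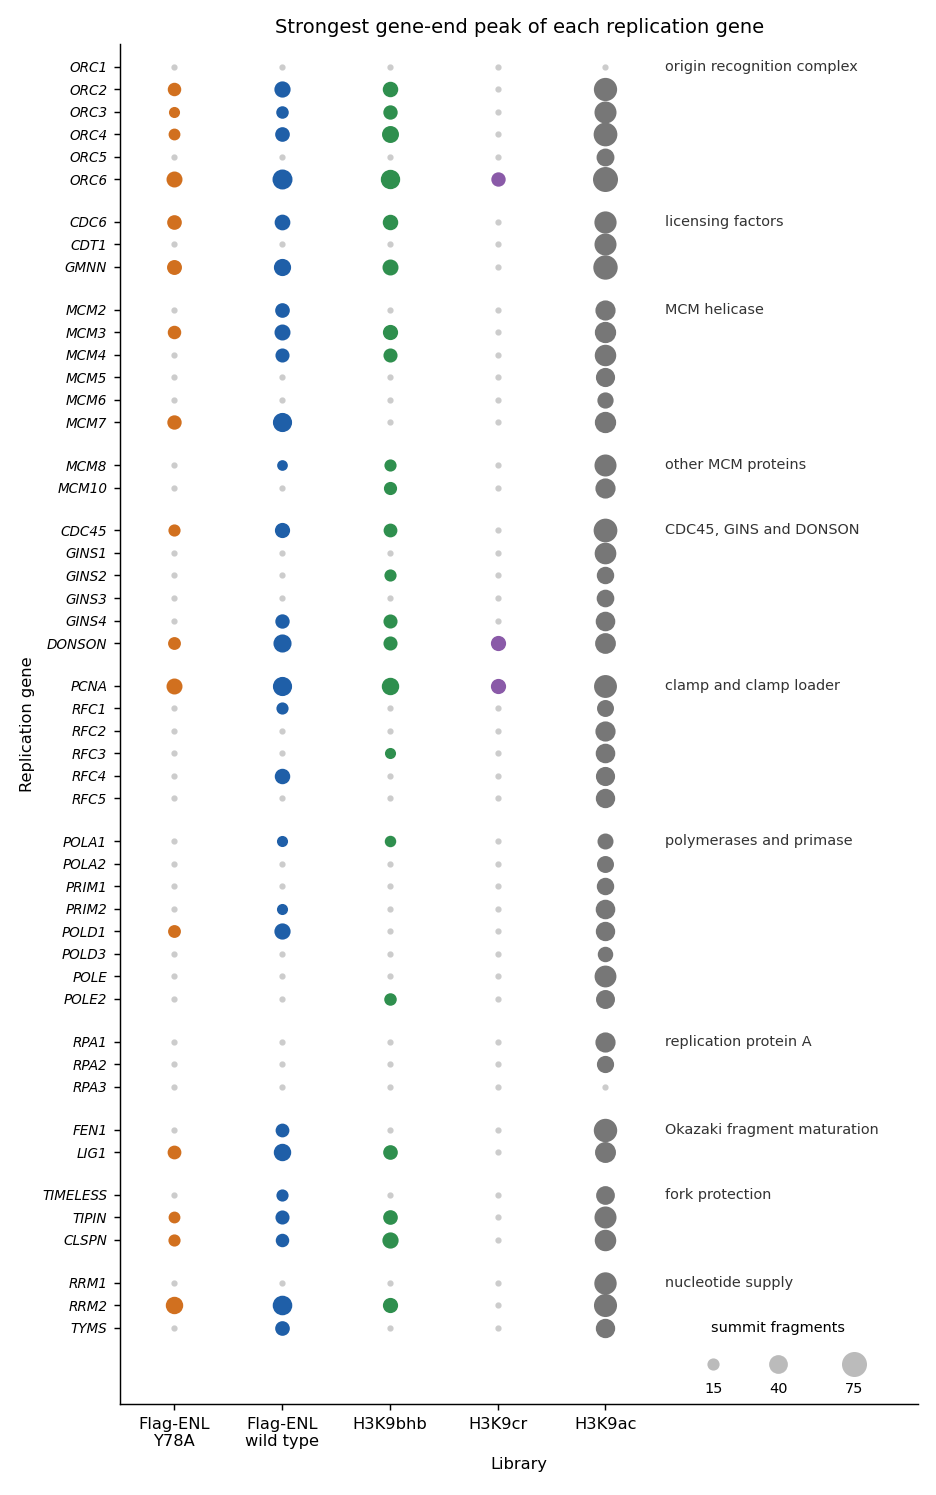
Each of the 48 replication genes (rows, by complex) in the 5 libraries (columns), with circle area proportional to the fragments at the summit of the strongest gene-end peak and a small grey dot where no gene-end peak was listed. H3K9ac is present in 46 rows, and ORC6, DONSON and PCNA alone have a circle in all 5 columns.

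The origin recognition complex marks the sites where replication can begin. Of its 6 genes, 4, ORC2, ORC3, ORC4 and ORC6, had Y78A, wild type ENL, H3K9bhb and H3K9ac peaks. Over all protein-coding genes these peaks stood singly at 14.6%, 28.6%, 23.8% and 56.4%. Y78A, wild type ENL and H3K9bhb stood together at 2538 of the 20037 genes. Each complex holds few genes, so its counts are descriptive only. ORC6, whose product is the smallest subunit, had 28 summit fragments in Y78A, 46 in wild type ENL, 43 in H3K9bhb, 22 in H3K9cr and 75 in H3K9ac. Those were the highest wild type ENL, H3K9bhb and H3K9ac fragment numbers of the 48 genes. A peak in all 5 lists, which ORC6 shared with DONSON and PCNA, occurred at 3.31% of all protein-coding genes. The authors' fold at the wild type peak (chr16:46688984-46690009, hg38) was 8.13, and the peak also lay at an end of VPS35, a retromer gene. The Y78A summit lay at −208 bp and the wild type summit at −215 bp from the ORC6 start, both inside the printed promoter and before its first CCAAT. The H3K9bhb, H3K9cr and H3K9ac summits lay further upstream, at −274, −283 and −496 bp.

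ORC2 and ORC3 had lower numbers than ORC6 in all 4 of their libraries. ORC2 had 19 fragments in Y78A, 29 in wild type ENL, 26 in H3K9bhb and 64 in H3K9ac. ORC3 had 12 in Y78A, 16 in wild type ENL, 22 in H3K9bhb and 57 in H3K9ac, at an end shared with RARS2, a mitochondrial arginyl-tRNA synthetase gene. ORC4 had 14 in Y78A, 23 in wild type ENL, 32 in H3K9bhb and 67 in H3K9ac. Its 8.30-fold H3K9bhb peak had the highest H3K9bhb fold among the 48 genes. RefSeq lists 2 starts for ORC4, and its Y78A, wild type and H3K9bhb summits lay at 85, 102 and 69 bp from the inner one, with MBD5, a methyl-CpG-binding domain gene, at the same peaks. ORC5 had H3K9ac alone, with 36 fragments. ORC1, the largest subunit, had no peak at its annotated ends. Its listed start lies inside the annotated gene, and there a wild type ENL peak of 16 fragments had its summit at −15 bp and an H3K9ac peak of 52 fragments at −180 bp.

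Of the 3 licensing factors, 2 had Y78A and wild type ENL, against 14.6% and 28.6% of all protein-coding genes. CDC6, which helps ORC load the MCM ring, had 23 fragments in Y78A, 27 in wild type ENL, 26 in H3K9bhb and 58 in H3K9ac. GMNN encodes geminin, the inhibitor of CDT1, and had 24 in Y78A, 33 in wild type ENL, 28 in H3K9bhb and 71 in H3K9ac, with a Y78A fold of 6.42, the highest of the 16. CDT1 itself, the partner of CDC6 in loading, had H3K9ac only. Its single 57-fragment peak had its summit 1057 bp inside the gene.

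The MCM genes all had H3K9ac and differed in the rest. MCM3 had the highest wild type fold of the ring genes, 7.57, with 19 fragments in Y78A, 28 in wild type ENL, 25 in H3K9bhb and 53 in H3K9ac. Its Y78A and wild type summits, at −153 and −89 bp, fell between its E2F matches, which begin at −174 and −4 bp, and its H3K9bhb summit lay before both, at −187 bp. MCM7 had 22 fragments in Y78A, 42 in wild type ENL and 53 in H3K9ac and no H3K9bhb peak, at an end it shares with AP4M1, an adaptor complex gene, and a second wild type peak there held 29. MCM4 had no Y78A peak and had 21 fragments in wild type ENL, 21 in H3K9bhb and 54 in H3K9ac, between MCM4 and PRKDC, which encodes a DNA repair kinase. MCM2 had 23 fragments in wild type ENL and 47 in H3K9ac, also with no Y78A peak, at an end shared with TPRA1. MCM5, with 42 H3K9ac fragments, and MCM6, with 29, had H3K9ac only. The 6 ring genes thus had wild type ENL at 4, against 28.6% of all protein-coding genes. H3K9bhb was at MCM3 and MCM4 only, against 23.8%. Outside the ring, MCM8, a helicase of recombination, had 11 fragments in wild type ENL, 15 in H3K9bhb and 57 in H3K9ac at an end shared with TRMT6, and its wild type peak was the weakest by −log10 p of the 27. MCM10, which helps activate the helicase, had 18 fragments in H3K9bhb and 47 in H3K9ac with no ENL peak of either kind.

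Among the genes that activate the helicase, CDC45 had 15 fragments in Y78A, 25 in wild type ENL, 20 in H3K9bhb and 67 in H3K9ac, at an end shared with UFD1, a gene of the protein-extraction segregase. DONSON, a factor that brings GINS to the ring, had peaks at both ends. At the end shared with CRYZL1 it had 17 fragments in Y78A, 24 in wild type ENL, 21 in H3K9bhb and 50 in H3K9ac. At the end near SON, a splicing factor gene, it had no Y78A peak and had 37 fragments in wild type ENL, 19 in H3K9bhb, 25 in H3K9cr and 28 in H3K9ac. The 10.1-fold wild type peak at the SON end (chr21:33576657-33577142) was the highest wild type fold of the 48 genes. GINS4 had 22 fragments in wild type ENL, 21 in H3K9bhb and 44 in its stronger H3K9ac peak, and its 7.32-fold wild type peak had the highest fold among the 11 genes where wild type ENL was listed and Y78A was at neither end. The remaining 3 GINS genes had no gene-end ENL peak, against 28.6% of all protein-coding genes with wild type ENL and 14.6% with Y78A. GINS2 had 15 fragments in H3K9bhb and 34 in H3K9ac, and GINS1 and GINS3 had H3K9ac only at their ends, with 55 and 35 fragments.

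The clamp gene had a peak in all 5 lists and each clamp loader gene in fewer. PCNA had 28 fragments in Y78A, 42 in wild type ENL, 34 in H3K9bhb, 25 in H3K9cr and 62 in H3K9ac, at an end shared with CDS2, a lipid synthesis gene. Its Y78A and H3K9bhb summits, at −53 and −93 bp, lay among the CCAAT and E2F letters of the printed promoter, its wild type summit before them at −173 bp, and the H3K9cr and H3K9ac summits lay at −305 and −292 bp. None of the 5 replication factor C genes had a Y78A peak, against 14.6% of all protein-coding genes. With so few genes, that count does not set them apart from other genes. RFC1, the large subunit, had 15 fragments in wild type ENL and 32 in H3K9ac, and RFC3 had 12 in H3K9bhb and 44 in H3K9ac. RFC4 had 26 fragments in wild type ENL at the 3′ end of the gene, 15962 bp from its start and near EIF4A2, a translation factor gene, and its 42-fragment H3K9ac peak lay at the start. RFC2, with 47 fragments, and RFC5, with 43, had H3K9ac only.

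Of the 8 polymerase and primase genes, 1 had Y78A, against 14.6% of all protein-coding genes, and 3 had wild type ENL, against 28.6%. POLD1, the catalytic subunit of polymerase delta, was the gene with Y78A, with 17 fragments in Y78A, 29 in wild type ENL and 43 in H3K9ac and no H3K9bhb peak, at an end shared with NR1H2, the gene of the oxysterol receptor LXR beta. POLA1, the catalytic subunit of polymerase alpha, had 12 fragments in wild type ENL, 13 in H3K9bhb and 28 in H3K9ac. PRIM2, the large primase subunit, had 12 in wild type ENL and 44 in H3K9ac at an annotated end shared with RAB23. The wild type summit there lay at −92898 bp from the nearest PRIM2 start in the promoter table. At the other of its 2 listed starts, an H3K9ac peak of 39 fragments had its summit at 31 bp. Deep inside PRIM2, at chr6:57500420-57500740, a site away from both annotated ends had 16 fragments in Y78A, 17 in wild type ENL and 10 in H3K9ac. POLE2, an accessory subunit of polymerase epsilon, had 16 fragments in H3K9bhb and 41 in H3K9ac with no gene-end ENL peak. POLA2, PRIM1, POLD3 and POLE had H3K9ac only at their ends, with 32, 34, 26 and 56 fragments. Inside POLE, 3088 bp from its start, an H3K9bhb peak held 22 fragments, and an H3K9cr peak 2951 bp from the start also held 22. POLA2 and POLE2, like GINS3, had a wild type ENL peak inside the gene and away from its ends.

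Replication protein A, which coats single-stranded DNA, had no gene-end ENL or H3K9bhb peak at any of its 3 genes. Over all protein-coding genes the shares were 14.6% for Y78A, 28.6% for wild type ENL and 23.8% for H3K9bhb. RPA1 had 47 H3K9ac fragments and RPA2 33. RPA3 had no peak at its annotated ends, and inside the gene, 4115 bp from its left end at the wild type summit, it had 20 fragments in Y78A, 23 in wild type ENL, 24 in H3K9bhb, 15 in H3K9cr and 55 in H3K9ac. That site (wild type peak chr7:7640477-7640903) lies at the annotated end of UMAD1, and its wild type fold was 8.24.

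Both genes of Okazaki fragment maturation had wild type ENL, against 28.6% of all protein-coding genes. LIG1, the ligase that seals nicks, had 20 fragments in Y78A, 34 in wild type ENL, 23 in H3K9bhb and 51 in H3K9ac, at an end shared with ZSWIM9. FEN1, the flap endonuclease, had 20 in wild type ENL and 65 in H3K9ac, at an end shared with TMEM258. The 3 fork protection genes had wild type ENL too, against the same 28.6%. TIPIN had 14 fragments in Y78A, 21 in wild type ENL, 23 in H3K9bhb and 57 in H3K9ac, with MAP2K1, a kinase gene of the growth factor pathway, at the same peaks. CLSPN, which encodes the checkpoint mediator claspin, had 15 in Y78A, 19 in wild type ENL, 29 in H3K9bhb and 54 in H3K9ac. Its H3K9bhb number was above its wild type ENL number, the reverse of LIG1. TIMELESS, the partner of TIPIN, had 15 in wild type ENL and 40 in H3K9ac and no Y78A or H3K9bhb peak.

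In nucleotide supply, RRM2 and RRM1 encode the small and large subunits of ribonucleotide reductase and differed. RRM2 had 34 fragments in Y78A, 44 in wild type ENL, 25 in H3K9bhb and 63 in H3K9ac. Its Y78A number was the highest of the 16 genes, although its wild type fold, 4.70, was below the members' median of 5.34. RRM1 had H3K9ac only, with 59 fragments in a 5.03-fold peak. TYMS, which encodes thymidylate synthase, had 23 fragments in wild type ENL and 43 in H3K9ac, with summits at 603 and 587 bp inside the gene.

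To compare the substituted and wild type proteins, Y78A was examined at the 27 genes with wild type ENL. Y78A was found at 16 of them, against 49.8% of all genes with wild type ENL. With every list cut to an equal length of 3852 peaks, Y78A was at 11 of the 48 genes and wild type ENL at 12, against 10.7% and 11.9% of all genes. In the full lists no replication gene had Y78A without wild type ENL, a pattern seen at 0.404% of all genes. At the 16 genes the Y78A and wild type peaks overlapped, against 99.3% of all genes with both. The Y78A summit held fewer fragments at every one of the 16. Ratios of Y78A to wild type lay between 0.524 at MCM7 and 0.852 at CDC6, with a median of 0.667. Over the 2834 genes with overlapping peaks the median ratio was 0.655, and Y78A was the higher in 52. The Poisson intervals of the 2 libraries overlapped at each of the 16 genes, for example 18.6 to 40.5 in Y78A and 33.7 to 61.4 in wild type ENL at ORC6. These intervals are 95% intervals and cover counting error only. The lower Y78A background, 0.841 times the wild type level, moves with this difference, and its part in it was not tested.

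**Figure D3:**
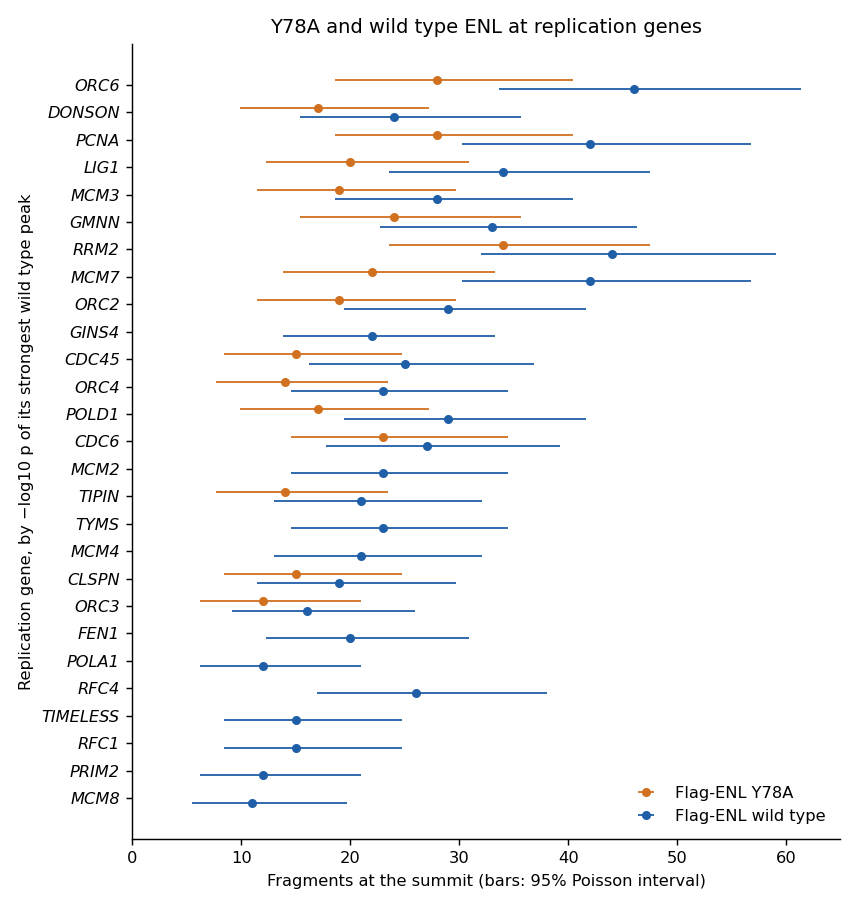
Fragments at the summit with 95% Poisson intervals for Flag-ENL Y78A (orange, upper point) and Flag-ENL wild type (blue, lower point) at the 27 replication genes with wild type ENL, ordered by the −log10 p of the strongest wild type peak; where both proteins have a peak, the overlapping pair is plotted. Each orange point lies left of its blue partner, and orange points are absent from the 7 lowest rows.

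The genes without Y78A had weaker wild type peaks at the median, although the ranges overlapped. The strongest wild type peak had a median −log10 p of 17.1 at the 16 genes with Y78A and 8.88 at the 11 without. Values ran from 9.68 to 29.5 with Y78A and from 5.48 to 15.7 without. The same medians over all genes were 16.98 and 9.70. When all wild type genes were divided into 4 equal groups by that −log10 p, Y78A was found, from weakest to strongest, at 0 of 6, 3 of 7, 5 of 6 and 8 of 8 replication genes. DONSON counts in the strongest group by its SON-end peak, which no Y78A peak overlapped, and its Y78A peak lay at the CRYZL1 end, where the wild type −log10 p was 16.8. Over all genes the same groups gave 11.4%, 31.1%, 63.8% and 92.8%. GINS4 was the replication gene without Y78A in the third group, and MCM2, MCM4, FEN1 and TYMS were those in the second. The weakest Y78A peak held 8 fragments and the 5th percentile of the Y78A list was 12.

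Whether ENL lay where H3K9bhb lay was asked next. Both were present at 18 of the 48, against 20.4% of all genes. Wild type ENL was therefore at 18 of the 22 replication genes with H3K9bhb, against 85.8% of all genes with H3K9bhb. Every one of the 22 also had H3K9ac, and the background with that condition was 86.1%. Of the 24 replication genes with H3K9ac and no H3K9bhb, 9 had wild type ENL, against 23.8% of all such genes. The 4 genes with H3K9bhb and no wild type ENL were MCM10, GINS2, RFC3 and POLE2, a pattern at 3.37% of all genes. The 9 with wild type ENL and no H3K9bhb were MCM2, MCM7, RFC1, RFC4, PRIM2, POLD1, FEN1, TIMELESS and TYMS, against 8.20% of all genes. Y78A was found at 14 of the 18 genes with wild type ENL and H3K9bhb, against 62.1% of all such genes, and at 2 of the 9 with wild type ENL and no H3K9bhb, against 19.2%. MCM4, MCM8, GINS4 and POLA1 had wild type ENL, H3K9bhb and H3K9ac and no Y78A, a combination at 7.67% of all genes. With no condition on H3K9ac the same 4 genes were counted, against 7.75%.

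All 18 pairs of wild type ENL and H3K9bhb peaks overlapped, against 98.6% of all genes with both. The median gap between summits was 64 bp, the same as the median of 64 bp over all 4034 genes with overlapping peaks. The gap was 1 bp at GINS4 and LIG1 and largest, 306 bp, at CDC45. Wild type ENL and H3K9ac peaks overlapped at 26 of 27 replication genes, against 97.4% of all genes with both. The exception was RFC4, whose ENL and H3K9ac peaks lay at opposite ends. Summits of wild type ENL and H3K9ac were further apart, with a median gap of 158.5 bp at replication genes and 140 bp at all genes. H3K9bhb and H3K9ac summits were 146.5 bp apart at replication genes and 133 bp at all genes.

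Of the 48 genes, 41 had a start in the RefSeq promoter table, and summits were placed relative to it, counting strand. At replication genes within 1 kb of a start the median summit lay at −53 bp in Y78A, −102.5 bp in wild type ENL, −93 bp in H3K9bhb and 26 bp in H3K9ac, and the 2 H3K9cr summits lay at −305 and −283 bp. The median summits of ENL and H3K9bhb thus lay just before the start and that of H3K9ac just after it. H3K9ac summits fell on both sides, upstream at 18 of 38 replication genes, against 40.5% of all genes with H3K9ac. The medians over all genes were −130 bp in Y78A, −112 bp in wild type ENL, −111 bp in H3K9bhb and 55 bp in H3K9ac. Y78A summits lay upstream at 9 of 15 replication genes, against 72.9% of all genes with Y78A, and wild type summits at 15 of 22, against 69.5%.

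**Figure D4:**
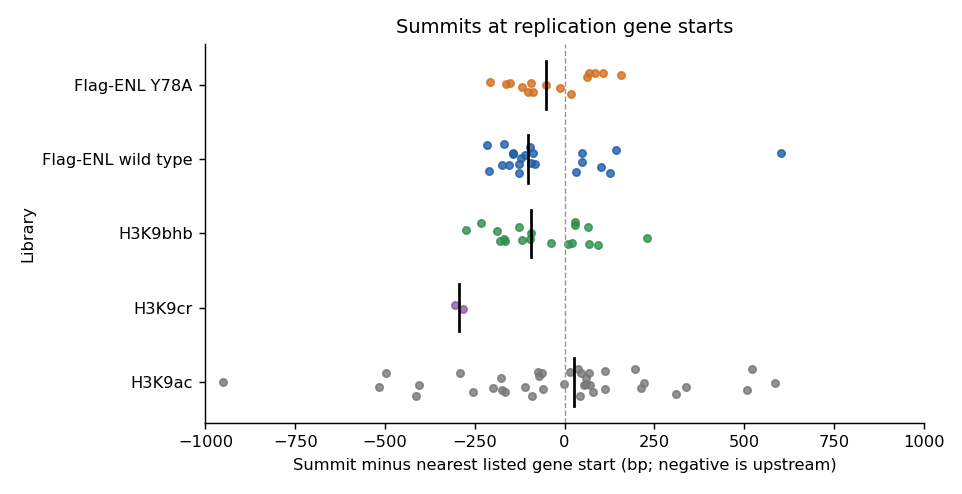
Distance in bp from the nearest listed start to the summit of the strongest gene-end peak, for replication genes with a summit within 1 kb of a start, by library; negative values are upstream and black lines are medians. Wild type ENL has its median at −102.5 bp, while H3K9ac summits spread from −952 to 587 bp with a median of 26 bp.

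Replication genes often lie close to another gene. An end of another protein-coding gene lay within 1 kb of an end of 21 of the 48 (43.8%), against 28.5% of all protein-coding genes. Y78A was at 10 of these 21, against 24.6% of all genes with such a neighbour, and at 6 of the other 27, against 10.7% of all genes with none. Wild type ENL was at 17 of the 21, against 43.9%, and at 10 of the 27, against 22.5%. H3K9bhb was at 11 of the 21, against 36.4%, and at 11 of the 27, against 18.7%. H3K9cr was at 3 of the 21, against 6.43%, and at 0 of the 27, against 3.71%. H3K9ac was at all 21, against 76.7%, and at 25 of the 27, against 48.3%. Among genes with H3K9ac, Y78A was at 10 of 21 with a neighbour, against 31.5%, and at 6 of 25 without, against 21.9%. Wild type ENL was there at 17 of 21, against 56.3%, and at 10 of 25, against 45.6%. H3K9bhb was at 11 of 21, against 47.0%, and at 11 of 25, against 38.2%. A peak at a shared end belongs as much to the neighbour as to the replication gene. At replication genes 10 of 16 Y78A peaks, 19 of 29 wild type peaks and 11 of 23 H3K9bhb peaks touched the end window of another gene. So did 3 of 3 H3K9cr peaks and 25 of 61 H3K9ac peaks. The same share over all gene-end peaks was not counted, so these numbers do not set replication genes apart.

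**Figure D5:**
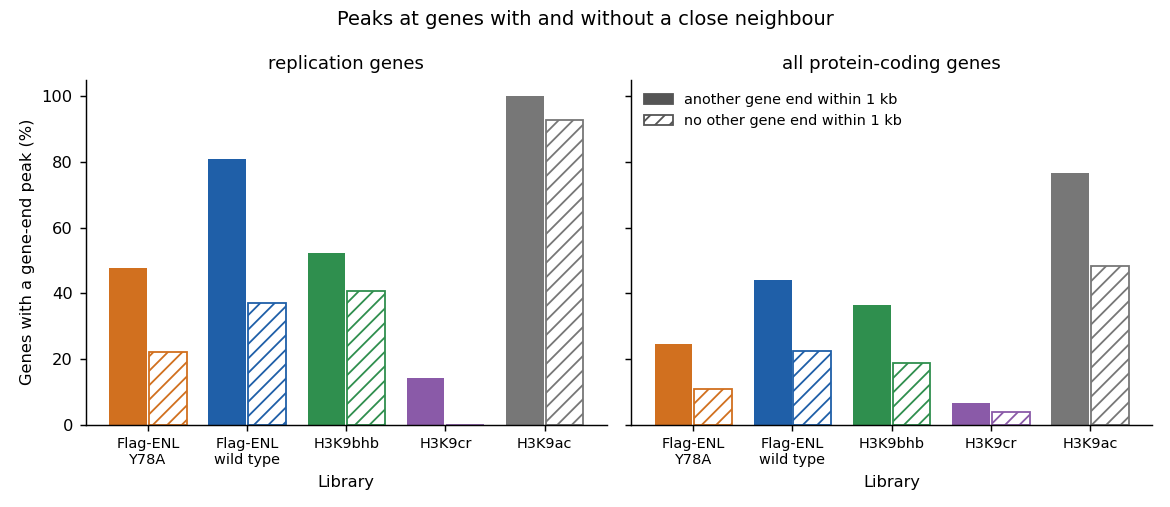
Percentage of genes with a gene-end peak in each library for genes with another gene end within 1 kb (filled) and without (hatched), for the 48 replication genes on the left and all protein-coding genes on the right. For wild type ENL the replication genes divide into 17 of 21 with a neighbour and 10 of 27 without, and all genes into 43.9% and 22.5%.

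The promoters of the 41 genes in the table were then set beside those of all 15843 protein-coding genes in it, with the first listed start of each gene. The E2F letters were in 20 of the 41 (48.8%), against 4.44% of all promoters of the same length. CCAAT was in 25 (61.0%), against 36.4%, and the GC box letters GGGCGG in 29 (70.7%), against 58.5%. The cell cycle homology letters TTTGAA or TTCGAA were in 2 (4.88%), against 13.5%. The median GC content was 65% in replication gene promoters and 62.7% in all promoters, and the median number of CpG dinucleotides was 30 and 22. Peaks were again counted at either gene end, so a counted peak need not lie in the promoter. Within the replication genes, wild type ENL was at 11 of 20 with E2F letters and 13 of 21 without. RFC4 and PRIM2, among those without, had their peak away from the listed start. ORC1, also without these letters, had a wild type peak at its listed start and was not counted. H3K9bhb was at 11 of 20 with E2F letters and 8 of 21 without. Over all genes with a listed promoter, gene-end wild type ENL was at 42.1% with E2F letters and 30.05% without. Gene-end H3K9bhb was at 35.0% and 25.02%. A match describes these letters only and is not a bound site.

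A further 36 replication genes outside the 48 were listed as well. Among them were origin kinase subunits, other polymerase subunits, chromatin assembly factors, topoisomerases and nucleotide enzymes. The list also held the transcription factor genes E2F1, E2F2 and E2F3, and E2F1 and E2F3 are in both ENL counts below. Y78A was at 13 of the 36, wild type ENL at 19, H3K9bhb at 24, H3K9cr at 2 and H3K9ac at all 36, beside the backgrounds of 14.6%, 28.6%, 23.8%, 4.49% and 56.4%. Of the 19 with wild type ENL, 18 also had H3K9bhb, with E2F1 as the exception, beside 18 of 27 among the 48 and 71.3% of all genes with wild type ENL. RRM2B, the p53-inducible partner of RRM1, had the highest wild type fold, 8.48, with 35 fragments in Y78A and 47 in wild type ENL and a peak in all 5 lists. DBF4, the activator of the origin kinase CDC7, followed at 8.46-fold with 27 wild type fragments and no Y78A peak. WDHD1, a replisome scaffold, stood at 7.29-fold with no Y78A peak. TOP1 stood at 7.22-fold with 25 fragments in Y78A and 43 in wild type ENL, and DTYMK, thymidylate kinase, at 6.68-fold with 20 in Y78A and 44 in wild type ENL. MCMBP, MTBP, TICRR, CHAF1A and CHTF8 had H3K9bhb and no gene-end ENL peak, as MCM10, GINS2, RFC3 and POLE2 did among the 48.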

How the data were processed

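Peak lists of 5 CUT&Tag libraries of HepG2 cells, 1 per group, were analysed, and titles gave the groups. Per the submitters' processing notes, the authors used Bowtie2, MACS2 and hg38. Any control library, duplicate removal and call settings were not stated. Each peak has a deposited fold, which is a ratio of summit signal to background, deposited −log10 p-values and q-values, and a deposited score that equals −log10 q times 10 in whole numbers. The lowest −log10 q in a list was 2.04 in Y78A, 2.05 in wild type ENL, 2.02 in H3K9bhb, 1.34 in H3K9cr and 1.31 in H3K9ac, so thresholds differed, and a looser one lengthens a list.

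Peaks on the 24 standard chromosomes were used. Summit fragments were taken as the whole number that, with a Poisson background and 1 added to both, matched the deposited fold and −log10 p within a relative tolerance of 3e-05 for 99.5% or more of each list. Fragment numbers have exact 95% Poisson intervals, for counting error only. Gene ends were those of RefSeq on GRCh38.p14, windows were 1 kb and overlap was at least 1 bp. Folds were used within a list only. Alternatives were windows of 500 and 2500 bp, whole genes, starts only, summits, −log10 q of at least 5, equal-length lists and all lines. Every member was named, with its strongest gene-end peak, and the 5 highest wild type folds of the other replication genes. The members and lists were chosen with earlier results of these data known. On simulated data all 200 planted gene-end peaks were found, and the gene counts differed from bedtools 2.31.1 at 0 genes. Analyses used python 3.11.15, pandas 2.3.3 and scipy 1.17.1.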

Additional observations from a re-analysis of the deposited data

How the results depend on the processing

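Equal-length lists of 3852 peaks changed the counts most. They left Y78A at 11 replication genes (10.7% of all genes), wild type ENL at 12 (11.9%), H3K9bhb at 14 (11.4%) and H3K9ac at 17 (16.9%). Y78A with wild type ENL then stood at 10 (8.33%), wild type ENL with H3K9bhb at 10 (7.63%), and wild type ENL, H3K9bhb and H3K9ac without Y78A at 1 (0.943%). In the full lists Y78A overlapped 16 of 29 wild type peaks at the replication genes, against 46.8% at all genes. With equal-length lists it overlapped 10 of 13, against 69.6%. The cut shortens each list by a different amount. With peaks anywhere in the gene counted, H3K9cr was at 5 genes (9.34% of all genes), and with −log10 q of at least 5 at 1 (1.51%). With listed starts only, for 41 genes, the combination without Y78A stood at 2, MCM8 and POLA1 (8.31%). MCM4 and GINS4 have no listed start, so they could not be counted there. The other 58 values for the 48 genes stayed within 1.5 times those reported, including 1 with no condition on H3K9ac, an alternative chosen after seeing the data. The same settings, also applied to the other 36 replication genes after seeing the data, moved wild type ENL there to 10 with equal-length lists and left it between 18 and 20 otherwise. With −log10 q of at least 5 in every list Y78A was at 12 genes (11.8%), wild type ENL at 23 (24.5%), H3K9bhb at 21 (19.0%) and H3K9ac at 45 (50.3%). The H3K9cr counts rest on 3 genes. No paired analysis was possible because each group had 1 library. Depth is known only as the recovered background, so an absent peak says that none was listed.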
